A study of Rattus norvegicus with 10 samples.

Results

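The linear transcripts of 2 innate immune genes, Nlrp3 and B2m, were read from the 10 arrays of a circular RNA study of rat synovium, the tissue that lines the joint. Members were chosen by probe name, A_44_P281733 for Nlrp3 and CUST_1_PI421900130 for B2m, which gave 2 of the 62 linear-transcript probes (39 of them with a gene symbol) that stand beside 14145 circRNA probes. The study set synovium of male rats with collagen-induced arthritis, abbreviated CIA (5 samples), against that of normal male rats (5 samples). CIA is a model in which immunisation with collagen is followed by joint inflammation. All rats were 7 to 8 weeks old, all samples are labelled day 21, and total RNA of both groups was digested with RNase R, an exonuclease that removes linear RNA, before Cy3 labelling. What a linear probe reads here is therefore the part of its transcript that outlasted the digestion, together with any circle that holds the same exon. The labels give sample numbers and do not tie each number to its own rat, so the p-values rest on a spread between samples that could be technical. In bulk tissue, fewer cells of a type and less RNA per cell cannot be told apart. Whether the digestion went equally far in every sample was not tested. Of 31 cell type marker genes, 1 (Map2, a neuronal gene) had a named probe, so the labelled tissue was not checked against its markers.

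NLRP3 is a cytosolic sensor that, on signs of infection or tissue damage, assembles the inflammasome, a complex that activates an inflammatory caspase and so releases mature interleukins and can end in cell death. Its transcription is raised by Toll-like receptor and cytokine signals, and it is studied in arthritis as a source of interleukin release from synovial macrophages. B2M is the invariant light chain of class I histocompatibility molecules, which show peptides from inside the cell to cytotoxic T cells. Its gene is active in nearly all nucleated cells and is raised by interferons, and because it is so widely active its mRNA often serves as a reference for other genes.

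Scan times in the headers fell into 2 runs that nearly coincided with the groups. All 5 CIA arrays were scanned in run 1 with 1 normal array, replicate 1, and the other 4 normal arrays in run 2. The 75th percentile of the circRNA signal, by which each array was scaled, was 133 to 198 units on the 4 normal arrays of run 2, 315 units on normal replicate 1 and 263 to 381 units on the CIA arrays. Its log2 mean was 0.83 higher for CIA over all arrays (two-sided exact permutation p = 0.016) and 0.10 higher within run 1, where normal replicate 1 lay inside the CIA range, so this factor moved with scan run as well as with group. Both members lay far over the negative control spots, whose median was 1.02 to 2.31 units per array. All 100 spots of each gene were well above background and none was saturated. With 5 arrays a group, the number of arrays sets the precision.

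Nlrp3 read lower on the CIA arrays once the arrays were scaled, by 1.88-fold, while its signal before scaling was nearly the same in both groups. Before scaling, the processed signal, averaged over the spots of the probe on the log2 scale, was 93.5, 73.6, 68.7, 53.6 and 138 units on normal replicates 1 to 5. On CIA replicates 1 to 5 it was 68.8, 51.5, 70.0, 111 and 96.1 units. These ranges overlapped almost wholly, with 1 normal array above all CIA arrays and 1 CIA array below all normal arrays. The log2 difference, CIA minus normal, was -0.08 (two-sided exact permutation p = 0.81).

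After division by the circRNA 75th percentile of each array, the log2 level of Nlrp3 was -1.75, -1.35, -0.95, -1.58 and -0.52 on normal replicates 1 to 5. It was -2.25, -2.35, -2.44, -1.70 and -1.95 on CIA replicates 1 to 5. The groups now overlapped by 1 array on each side: CIA replicate 4 lay above normal replicate 1, the normal array of scan run 1. The normal mean was -1.23 ± 0.50 and the CIA mean -2.14 ± 0.31 (SD, n = 5 each). For this single gene, an exact permutation test (two-sided) gave p = 0.016. In limma across the 62 linear-transcript probes the log2 fold change was -0.91 (SE 0.31, Benjamini-Hochberg adjusted p = 0.092), which did not pass 0.05; 2 of the 62 probes passed (3.23%). The adjusted p was 0.026 without normal replicate 1, at a log2 fold change of -1.04, when the remaining normal arrays were all of scan run 2 and 38.7% of the probes passed. With each of the other 9 arrays left out in turn it was 0.087 to 0.19, at log2 fold changes of -1.02 to -0.73, the smallest without normal replicate 5.

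B2m read lower on the CIA arrays on both scales, by 5.29-fold before and 9.39-fold after scaling, and its spread within each group was wide. The signal was 467, 2257, 249, 3745 and 313 units on normal replicates 1 to 5. It was 403, 175, 60.9, 358 and 48.3 units on CIA replicates 1 to 5. Normal replicates 2 and 4, both of scan run 2, were the brightest, and the other 3 normal arrays were near CIA replicates 1 and 4. Before scaling the groups overlapped, with 3 normal arrays above all CIA arrays and 3 CIA arrays below all normal arrays (two-sided exact permutation p = 0.056 for the log2 difference of -2.40).

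After scaling, the log2 level of B2m was 0.57, 3.59, 0.90, 4.54 and 0.66 on normal replicates 1 to 5. It was 0.30, -0.59, -2.64, -0.01 and -2.95 on CIA replicates 1 to 5. All CIA arrays lay below all normal arrays, though the lowest normal array and the highest CIA array, both of scan run 1, were close together. Of the 62 linear probes, 3.23% were lower in CIA without overlap of the groups. The normal mean was 2.05 ± 1.87 and the CIA mean -1.18 ± 1.51 (SD, n = 5 each). An exact permutation test (two-sided) gave p = 0.0079, the smallest that 5 against 5 arrays can give. In limma across the 62 probes the log2 fold change was -3.23 (SE 0.91, adjusted p = 0.057), which did not pass. It was the most negative of the 62, against a median of 0.12 over all of them. The adjusted p was 0.016 without normal replicate 1 (log2 fold change -3.60) and 0.039 without normal replicate 5 (-3.58), fits in which 38.7% and 12.9% of the probes passed. The log2 fold change was smallest without normal replicate 4 (-2.61, adjusted p = 0.13), CIA replicate 5 (-2.79, adjusted p = 0.11) or normal replicate 2 (-2.85, adjusted p = 0.16).

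**Figure D1:**
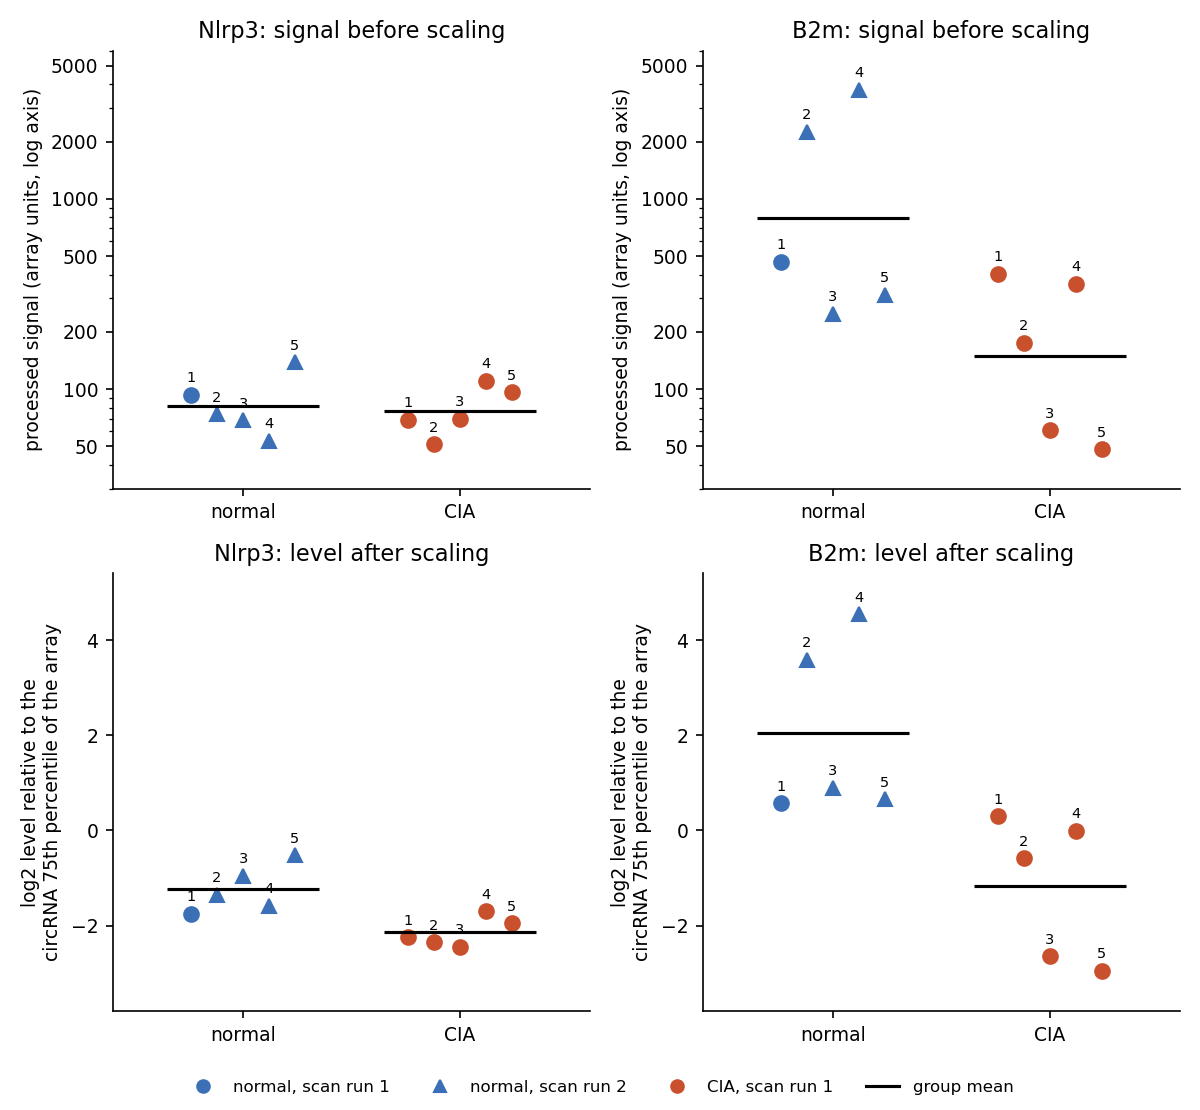
Each point is 1 array, numbered by replicate: the top row gives the processed signal of the Nlrp3 and B2m probes in array units on a log axis, the bottom row the scaled log2 level, with bars at the group means (geometric means in the top row). Nlrp3 spans 51.5 to 138 units over all 10 arrays and B2m 48.3 to 3745 units, and the B2m groups separate in the bottom row only, by 0.57 against 0.30.

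The stretch of DNA before B2m is shown because it holds, side by side, the kinds of motif through which interferon and NF-kappaB signals are known to act on this gene. It is the part of the RefSeq promoter window of B2m (assembly GRCr8, + strand, chr3:129549080-129549235) that precedes the annotated start of the gene, 156 bases, with matches to the searched motifs in capitals.
B2m: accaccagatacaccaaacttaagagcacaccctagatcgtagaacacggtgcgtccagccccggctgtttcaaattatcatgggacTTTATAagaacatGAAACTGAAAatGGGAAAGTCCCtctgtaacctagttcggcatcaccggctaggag
The capitals mark, from left to right, TATAAA on the other strand, the interferon response motif (GAAA repeated after any 2 bases), and an NF-kappaB-type motif (GGG and CC with any 5 bases between), which matches once on each strand in overlapping positions. Both strands of the 250 bases before the start site of each window were searched for these motifs and for CCAAT and TATATAA, all chosen with the B2m sequence known. The interferon response motif occurred in 3.41% of the 33469 promoter windows, the NF-kappaB-type motif in 42.3%, TATAAA in 12.9%, CCAAT in 34.0% and TATATAA in 3.42%. The start sites of both windows lie inside the annotated genes, by 94 bases for B2m and by 1799 for Nlrp3. The B2m window held all 5 motifs, with CCAAT and TATATAA inside the annotated gene and outside the bases shown, and the Nlrp3 window, all of it inside the gene, held 0. A match describes the letters of the window and nothing in the arrays bears on binding there.

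The members differed in how much they varied from array to array. Over the 10 arrays the unscaled signal of B2m spanned 77.6-fold, the widest range among the 62 linear probes, whose median range was 5.89-fold. It spanned 15.1-fold among the normal and 8.35-fold among the CIA arrays. Nlrp3 spanned 2.69-fold, and only 2 of the 62 probes had a narrower range. Ordered from the highest SD after scaling, B2m ranked 2 of 62 among normal and 4 among CIA arrays, and Nlrp3 ranked 41 and 53. Spots of the same probe on 1 array had a log2 SD of 0.019 to 0.10 for B2m and 0.047 to 0.14 for Nlrp3, so the spread between B2m arrays was many times that between its spots.

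Whether B2m differed more between the groups than Nlrp3 was tested on the log2 difference of the 2 probes within each array, in which the scaling cancels. The mean CIA difference minus the mean normal difference was -2.32 in log2 units, or 5.00-fold lower, with a normal SD of 2.14 and a CIA SD of 1.49 (n = 5 each). The groups overlapped and the two-sided exact permutation p was 0.11, so a larger difference for B2m was not shown; this does not show that the genes moved alike.

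Scan run moved with the group, and the comparison within run 1 rests on normal replicate 1 alone. With scan run as a block, the limma log2 fold change was -0.39 (SE 0.52) for Nlrp3 and -1.75 (SE 1.51) for B2m, both with an adjusted p of 0.89, and 0 of the 62 probes passed (1 had an unadjusted p under 0.05). Within run 1, normal replicate 1 had the highest B2m level of the 6 arrays and the second highest Nlrp3 level. The two-sided exact permutation p was 0.50 for each, and 6 arrays split 1 against 5 cannot go below 0.17. Normal replicates 2 to 5 of run 2 averaged 2.42 ± 1.94 for B2m and -1.10 ± 0.47 for Nlrp3 (SD, n = 4). The part of scan run in the group difference could be measured only through normal replicate 1.

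The size of the Nlrp3 difference depended on the quantity that each array was scaled to. Without scaling, the log2 fold change of the median linear probe was 0.94, and those of Nlrp3 and B2m were -0.08 and -2.40. With each array set to the median of its own linear probes, Nlrp3 had -0.46 (SE 0.34, limma adjusted p = 0.29) and B2m -2.78 (SE 0.88, adjusted p = 0.062), and 9.68% of the probes passed. Against the median fold change of the linear probes, Nlrp3 stood at -1.03 and B2m at -3.35 on the log2 scale, with or without scaling by a constant per array. After normexp background correction, which adds an offset of 50 units, the same distances were -0.34 and -2.30. Both genes then had an adjusted p of 0.040 in limma, at log2 fold changes of -0.68 and -2.65, while 22.6% of the linear probes passed and their median was -0.34. B2m also passed without scaling (limma adjusted p = 0.041), as the lone lower probe beside 17 higher ones (29.0% of probes passed, 1.61% as lower), and after quantile normalization (adjusted p = 0.044; 8.06% passed). With arrays weighted by their fit, both passed (limma adjusted p = 0.019 for Nlrp3 and 0.0067 for B2m), as did 43.5% of the probes. Normal replicate 1, the only normal array of scan run 1, had the lowest weight (0.30, the other arrays 0.65 to 2.24). The weighted log2 fold changes were -0.98 for Nlrp3 and -3.95 for B2m. Without that array they were -1.04 and -3.60, and in the reported setting -0.91 and -3.23.

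**Figure D2:**
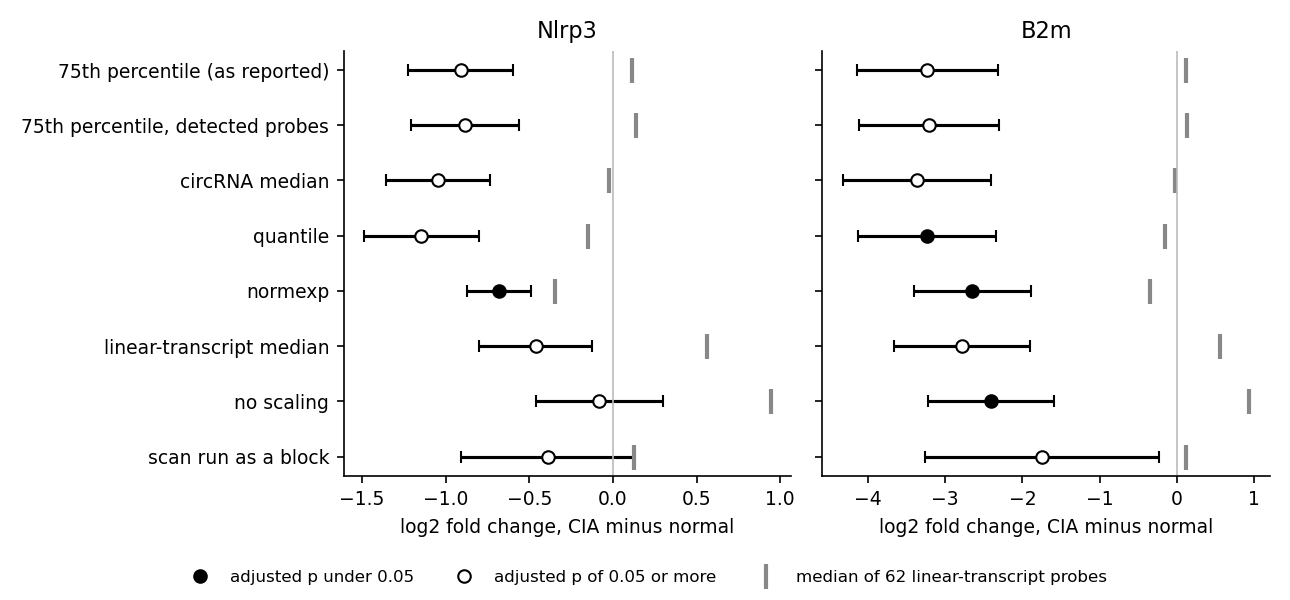
Points are limma log2 fold changes, CIA minus normal, of Nlrp3 (left) and B2m (right) under 8 settings, with standard errors as bars and filled where the adjusted p was under 0.05; grey ticks are the median of the 62 linear probes, and the horizontal axes of the panels differ. Nlrp3 runs from -1.15 with quantile normalization to -0.08 without scaling, and B2m from -3.37 with the circRNA median to -1.75 with scan run as a block.

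Other genes of the 2 pathways could not be set beside the members. Of 27 genes of inflammasome and innate sensing, among them Pycard, Casp1, Il1b, Il18 and Gsdmd, Nlrp3 alone had a named probe. Of 23 genes of class I antigen presentation, among them the RT1 heavy chains, the peptide transporters Tap1 and Tap2 and the immunoproteasome subunits, B2m alone did. For the second role of B2m, as a reference gene, 9 probes of 8 other common reference genes were measured. Of these 9, 1 was called lower and 0 higher in limma, where 1.61% of all 62 probes were called lower, and their median log2 fold change was -0.71, against 0.12 for all 62. The lower one was Actb, which encodes beta-actin (log2 fold change -1.86, SE 0.44, adjusted p = 0.037; -0.43, SE 0.57, with scan run as a block).

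Each member was then taken relative to each of these 9 probes within the array, in a comparison added after the data were examined. The CIA mean of B2m was below its normal mean relative to all 9, by log2 differences of -4.03 to -1.37, with a median of -2.52. Two-sided exact permutation tests, adjusted over the 18 comparisons of both members, passed for 2 of them. These were the glycolytic enzyme gene Ldha by its probe A_44_P210461 (-4.03, normal SD 2.13, CIA SD 1.59, n = 5 each) and Sdha, a subunit of succinate dehydrogenase (-3.57, SD 2.04 and 1.42), both without overlap of the groups and both with an exact adjusted p of 0.048. The other Ldha probe gave -3.31, with overlap of the groups, and did not pass (exact adjusted p = 0.071). The smallest B2m differences were against Actb (-1.37, exact adjusted p = 0.23) and the ribosomal protein gene Rplp1 (-1.47, exact adjusted p = 0.20). The 9 comparisons share the B2m probe and are not independent.

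Nlrp3 had no common direction against the same probes: it was lower relative to 5 and higher relative to 4, from -1.71 to 0.95, with a median of -0.20. Of these, 1 passed, against Ldha by probe A_44_P210461 (-1.71, normal SD 0.63, CIA SD 0.51, n = 5 each; exact adjusted p = 0.048). The other Ldha probe gave -0.99 and Sdha -1.25, both with an exact adjusted p of 0.10. Relative to Actb the Nlrp3 difference was 0.95 (exact adjusted p = 0.13), and relative to Rpl13a, a ribosomal protein gene, it was -0.20 (exact adjusted p = 0.60). The direction of Nlrp3 thus differed with the gene it was read against. Within scan run 1, the CIA mean less normal replicate 1 was below 0 against all 9 probes for B2m (-2.25 to -0.94) and against 4 of 9 for Nlrp3 (-0.90 to 0.42).

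**Figure D3:**
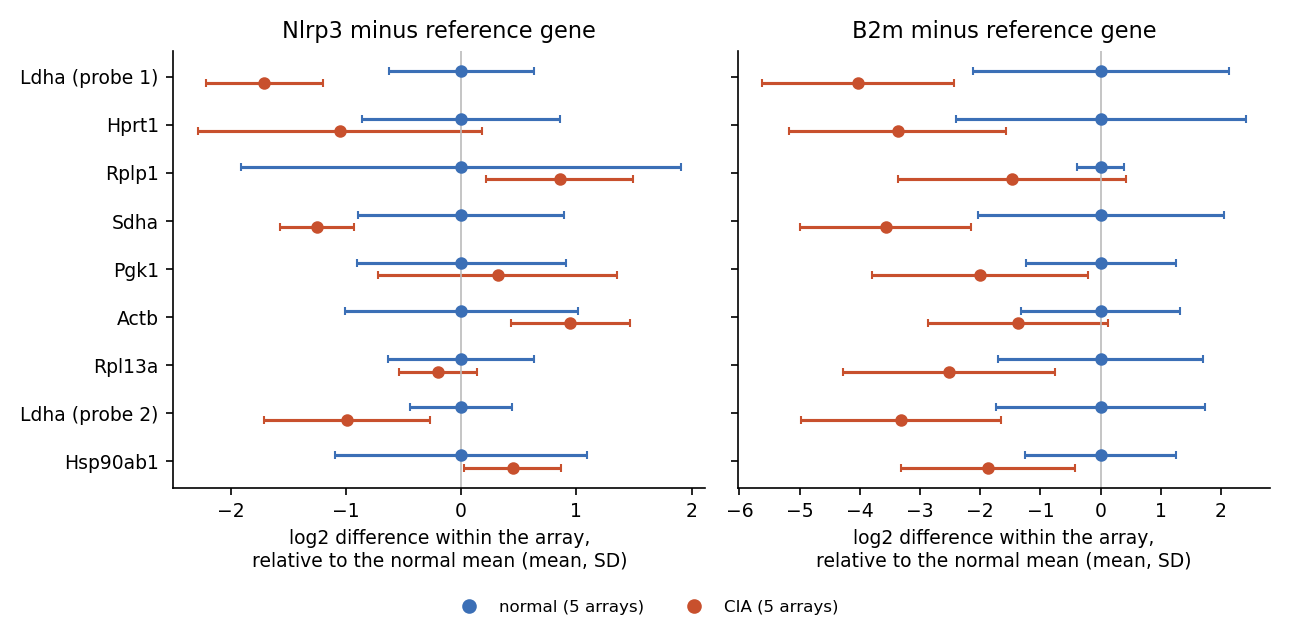
For each reference probe, points are the mean log2 difference between Nlrp3 (left) or B2m (right) and that probe within the array, set relative to the normal mean, with SD as bars (5 arrays per group); Ldha probe 1 is A_44_P210461 and the axes of the panels differ. The CIA means of B2m lie between -4.03 and -1.37, all below the normal mean, and those of Nlrp3 between -1.71 and 0.95, on both sides of it.

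The genes whose pattern over the 10 arrays was most like that of each member came from the same reference set. Likeness was the root mean square distance between log2 levels standardised to mean 0 and SD 1, where 0 is an identical pattern. The 10 levels hold the difference between groups and scan runs, so probes that share it come out as alike. The nearest genes all had log2 fold changes below 0, from -1.86 (Actb) to -0.71 (Rpl13a). For B2m the nearest of 37 named probes were the chaperone gene Hsp90ab1 (0.55), Actb (0.56) and Rplp1 (0.63), against a median distance of 1.45. For Nlrp3 they were Actb (0.77), Rpl13a (0.81) and Hsp90ab1 (0.88), against a median of 1.38. The distance between B2m and Nlrp3 was 0.98. Normal replicates 2 and 4, the brightest for B2m, also had the highest log2 levels of Rplp1, 2.72 and 2.84, where the other 8 arrays had 0.22 or less. The highest Hsp90ab1 levels were on the same 2 arrays, at 5.30 and 4.75. Nlrp3 was not highest there: its highest levels were on normal replicates 5 and 3. Actb was highest on normal replicate 4 (2.95), with normal replicate 5 (1.80) above normal replicate 2 (1.75). Among the CIA arrays, replicates 5 and 3 had the lowest B2m levels. Of these arrays, replicate 5 had the highest Rplp1 level (-0.003), replicate 4 the lowest Actb level (-0.41) and replicate 3 the lowest Hsp90ab1 level (2.58).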

How the data were processed

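Each sample was read on 1 single-colour array. The deposited intensity of a spot is the processed signal of Agilent Feature Extraction 11.0.1.1, per the file headers, from which background had been subtracted; arrays had not been scaled to each other. From these deposited intensities, the log2 processed signal was averaged over spots not flagged as outliers (8 to 10 of 10 spots for Nlrp3, 9 or 10 for B2m), and the log2 of the 75th percentile of circRNA signal on that array was subtracted. Gene symbols came from RefSeq (assembly GRCr8) by accession without version; 39 of 62 linear-transcript probes matched. The group difference was fitted across the 62 probes in R 4.3.3 (limma 3.58.1, lmFit, eBayes), called at a Benjamini-Hochberg adjusted p under 0.05, and tested for single values with two-sided exact permutation tests over samples (252 divisions). The limma step was tested on simulated data. Scan runs were read from scan times in the headers. Named genes were the members, the 3 probes most like each, and members of the gene lists with a named probe. The members and lists were chosen with earlier results of these data known. Alternatives were other scalings, normexp correction of the median spot signal (offset 50), spot summaries, filters, blocks, variance models, array weights and leaving out each array; the unscaled signal and the reference gene comparison were added after the data were examined. The deposited value table holds neither member, so that alternative gave no value. Figures were drawn with matplotlib 3.10.9.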

Additional observations from a re-analysis of the deposited data

How the results depend on the processing

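No alternative turned the direction of Nlrp3 (25 fits), B2m (25 fits) or the difference between them (17 tests), but several could not. The replicate block, the variance model, the background filter and the joint fit with circRNA probes kept the log2 fold changes at -0.91 and -3.23. Scan run as a block and scan run 1 alone gave the same estimates. Without scaling Nlrp3 was near 0 (-0.08, SE 0.38). The reference gene comparison is not in these counts, and there Nlrp3 was lower against only 5 of 9 probes. Nlrp3 passed the adjusted threshold in 3 alternatives: normexp (-0.68), array weights (-0.98), and without normal replicate 1. B2m passed in 7: quantile normalization (-3.24), normexp (-2.65), no scaling (-2.40), the replicate block (-3.23), array weights (-3.95), and without normal replicate 1 or 5. Leaving out each array gave log2 fold changes of -1.04 to -0.73 for Nlrp3 and of -3.60 to -2.61 for B2m (limma adjusted p = 0.026 to 0.19 and 0.016 to 0.16), and -2.85 to -1.61 for the difference between them (two-sided exact permutation p = 0.063 to 0.22). Over all alternatives the limma adjusted p was 0.019 to 0.94 for Nlrp3 and 0.0067 to 0.92 for B2m.

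The count of linear probes past the threshold, 2 in the reported setting, was 5 with quantile normalization, 6 with the linear-transcript median, 14 with normexp, 18 without scaling and 27 with array weights. It was 1 among the 45 probes well above background on all arrays, and 0 to 24 when each array was left out. It was 0 with scan run as a block or within scan run 1 (1 probe at an unadjusted p under 0.05 in each), and 0 of 13953 when circRNA probes were fitted together with them (4521 at an unadjusted p under 0.05; adjusted p = 0.096 for both members). With the replicate number as a block 5 probes passed, B2m among them (limma adjusted p = 0.047) and Nlrp3 not (0.091). The numbers come from the titles; deviations of same-numbered arrays correlated at -0.09 to 0.18 across 13953 probes and at 0.065 to 0.55 across the 62 linear probes. Not every pair was over 0.1 in either set, and 1 of 5 CIA arrays correlated best with its own number over all probes, so the numbers were not taken to pair the samples; some shared deviation among the linear probes was measured. All 100 spots of each member were well above background, yet the background step changed the size of the differences. With normexp, the distance from the median linear probe went from -1.03 to -0.34 for Nlrp3 and from -3.35 to -2.30 for B2m.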

Other observations

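On normal replicate 5, the array with the highest Nlrp3 level, 1 of the 10 Nlrp3 spots read 384 units and was marked as an outlier by the scanner software, while the other 9 read 124 to 155 units. Keeping all such spots gave a log2 fold change of -0.96 for Nlrp3 (SE 0.33, limma adjusted p = 0.083). Over all arrays, 9 of 100 Nlrp3 spots on 7 arrays and 2 of 100 B2m spots on 2 arrays were marked.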
